A study of Homo sapiens with 8 samples.

Results

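The mitochondrial respiratory chain was followed across 8 RNA sequencing libraries through the transcripts of its protein subunits. The genes were taken by name and by genome, with pseudogenes left out. From the mitochondrial genome came its 13 protein genes. Nuclear genes were taken where the symbol begins NDUFA, NDUFB, NDUFC, NDUFS or NDUFV with a number. Nuclear genes named as subunits of the SDH, UQCR, COX5 to COX8 or ATP5 families were also taken. That gave 97 genes of 61533 in the count tables, 13 mitochondrial and 84 nuclear. Of the nuclear genes 37 carry complex I names, 4 belong to complex II, 9 to complex III, 14 to complex IV and 20 to complex V. The names set the groups, so NDUFA4, now known as a complex IV subunit, stands with complex I. COX4I1, CYC1 and NDUFAB1 fall outside the naming rule and are described with the other pathway genes.

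The respiratory chain passes electrons from NADH and succinate to oxygen and pumps protons across the inner mitochondrial membrane, and ATP synthase uses the returning protons to make ATP. Complex I oxidises NADH, complex II (succinate dehydrogenase) oxidises succinate, complex III passes electrons from ubiquinol to cytochrome c, complex IV (cytochrome c oxidase) reduces oxygen, and complex V is ATP synthase. Complexes I, III, IV and V are built from subunits of both genomes: the mitochondrial DNA, copied into long transcripts that are cut into single mRNAs, encodes membrane-embedded subunits, and the nucleus encodes the rest, whose proteins are imported.

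The libraries came from A431, a human epidermoid carcinoma line, and CAL27, a human squamous cell carcinoma line derived from the tongue. Cells of either line were kept for 16 h in DMSO (the solvent) or in a compound labelled NEDD8i, and each of the 4 groups has 2 libraries. NEDD8 is a ubiquitin-like protein that is attached to cullins and so activates cullin-RING ubiquitin ligases. The sources used here do not give the inhibitor's identity or dose. They also do not say if a group's libraries are separate cultures, so the spread behind the p-values may be technical.

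Libraries were read from the 3' ends of polyadenylated RNA and held 49037868 to 62509817 counts. Levels are CPM, a gene's counts scaled by library size. Changes are log2 ratios from edgeR's quasi-likelihood fit over all 8 libraries and 18738 genes, each with an approximate standard error, and a gene is called at an adjusted p under 0.05. All 7 squamous epithelial markers, KRT5, KRT14, KRT6A, TP63, CDH1, EPCAM and DSP, were counted in every library. Of 10 markers of other cells, PTPRC, CD68 and DES were at 0 throughout. Their sum was 52.4 to 58.0 CPM in A431 under DMSO and 20.01 to 20.87 under NEDD8i, nearly all of it CDH5, COL1A1 and LUM, and 21.7 to 22.8 and 16.5 to 19.5 CPM in CAL27. Its part in the results was not tested.

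Where 2 mitochondrial genes overlap, reads over the shared bases go to neither gene, because reads touching more than 1 gene were not counted. MT-ATP8 and MT-ATP6 share 46 bases at chrM:8527-8572 on GRCh38, which are 22.2% of MT-ATP8. They are shown because MT-ATP8, with the fewest counts of the 13 genes, is read from what is left. The sequence was read from the GENCODE 29 transcripts, and the capitals mark the start codon of MT-ATP6 inside the MT-ATP8 reading frame.
MT-ATP8 and MT-ATP6 shared bases: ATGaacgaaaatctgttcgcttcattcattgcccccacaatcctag

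Many nuclear subunit genes are known targets of NRF1 and of the ETS-family factor GABP, often called NRF2 in this setting. In RefSeq's promoter table for GRCh38.p14, 67 of the 84 nuclear genes had an entry, of which the 250 bases before the first listed start were searched on both strands. The NRF1 motif, GCGCA and GCGC with any base between them, stood in 22.4% of these 67 promoters and in 7.65% of 15842 promoters of protein-coding genes of the same length. The ETS motif CCGGAAG stood in 25.4% against 11.8%, the YY1 motif AAGATGGC in 1.49% against 1.39%, and the SP1 motif GGGCGG in 56.7% against 56.0%. Matches of different motifs can overlap, and a match describes letters and not a bound site. Below are 7 promoters of genes on which the results turn: SDHA and UQCRFS1, which fell in CAL27, hold the NRF1 motif, UQCRH and ATP5MK, which rose there, hold the ETS motif, and NDUFV3, ATP5IF1 and NDUFB11 hold neither. These 7 were chosen for their changes. RefSeq starts can differ from those of the counted genes. The NDUFB11 window lies wholly inside the counted gene, which spans 47142071 to 47145466. Over all members with a promoter, the NRF1 motif stood in 3 of 11 promoters of genes called higher in CAL27 and in 4 of 12 of those called lower, and the ETS motif in 3 and 2. Capitals mark NRF1 and ETS matches.
SDHA, chr5:218070-218319, plus strand: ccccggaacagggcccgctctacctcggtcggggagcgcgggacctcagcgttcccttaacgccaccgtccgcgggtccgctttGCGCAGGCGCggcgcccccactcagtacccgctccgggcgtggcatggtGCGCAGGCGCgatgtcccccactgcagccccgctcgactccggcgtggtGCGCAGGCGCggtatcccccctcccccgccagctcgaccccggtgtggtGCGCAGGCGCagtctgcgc
UQCRFS1, chr19:29213152-29213401, minus strand: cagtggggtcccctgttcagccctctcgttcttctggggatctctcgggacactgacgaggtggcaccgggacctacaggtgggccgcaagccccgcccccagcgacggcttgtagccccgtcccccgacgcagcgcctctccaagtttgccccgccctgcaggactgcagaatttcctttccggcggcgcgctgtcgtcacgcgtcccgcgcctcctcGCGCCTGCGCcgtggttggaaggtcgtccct
UQCRH, chr1:46303448-46303697, plus strand: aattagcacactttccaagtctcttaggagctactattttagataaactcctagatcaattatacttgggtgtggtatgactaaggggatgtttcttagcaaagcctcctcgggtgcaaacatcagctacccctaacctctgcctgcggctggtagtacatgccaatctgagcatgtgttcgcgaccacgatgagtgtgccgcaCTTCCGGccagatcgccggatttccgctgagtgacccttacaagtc
ATP5MK, chr10:103396476-103396725, minus strand: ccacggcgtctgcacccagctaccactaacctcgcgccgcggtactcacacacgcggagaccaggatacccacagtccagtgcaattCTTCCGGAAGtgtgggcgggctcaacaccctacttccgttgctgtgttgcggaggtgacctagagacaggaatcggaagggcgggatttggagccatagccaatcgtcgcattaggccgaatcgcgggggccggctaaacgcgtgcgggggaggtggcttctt
NDUFV3, chr21:42893059-42893308, plus strand: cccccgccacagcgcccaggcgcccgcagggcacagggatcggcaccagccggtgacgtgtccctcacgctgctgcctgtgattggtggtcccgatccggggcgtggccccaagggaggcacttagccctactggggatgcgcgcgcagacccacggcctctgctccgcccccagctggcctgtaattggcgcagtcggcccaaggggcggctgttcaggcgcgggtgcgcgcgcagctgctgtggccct
ATP5IF1, chr1:28235874-28236123, plus strand: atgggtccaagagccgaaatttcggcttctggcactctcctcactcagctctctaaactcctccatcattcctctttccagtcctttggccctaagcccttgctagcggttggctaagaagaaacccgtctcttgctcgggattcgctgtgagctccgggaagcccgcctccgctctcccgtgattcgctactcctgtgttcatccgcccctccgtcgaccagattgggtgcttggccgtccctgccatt
NDUFB11, chrX:47144703-47144952, minus strand: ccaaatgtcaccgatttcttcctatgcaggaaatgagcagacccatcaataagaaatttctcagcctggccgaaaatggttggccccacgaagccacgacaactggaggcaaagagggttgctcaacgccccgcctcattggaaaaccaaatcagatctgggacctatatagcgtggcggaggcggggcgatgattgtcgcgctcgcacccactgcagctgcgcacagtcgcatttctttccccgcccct
The SDHA window holds 4 NRF1 matches, all with the same letters. The marked stretch of ATP5MK holds an ETS match on each strand, and these matches share bases.

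Most of the 13 mitochondrial protein genes fell under NEDD8i in each line, and none was called higher in either. These levels are of reads primed on poly(A), and the part of tail length in them was not tested. In A431, 9 of 13 were called lower, against 21.1% of all genes tested lower and 43.6% called in either direction, with a median log2 change of -0.39. In CAL27, 10 of 13 were called lower, against 26.4% lower and 49.6% in either direction, with a median of -0.42. The median over all genes tested was -0.01 in A431 and -0.04 in CAL27. The 13 genes share long transcripts and libraries and are not independent, so these counts are a description. MT-ND1, MT-ND4, MT-ND5, MT-ND6, MT-CO1, MT-CO2 and MT-ATP6 were called lower in both lines. MT-ND3 and MT-CO3 were called in A431, MT-ND2, MT-ND4L and MT-CYB in CAL27, and MT-ATP8 in neither. The difference between the lines was called for none of the 13 (34.0% of all genes tested). It ranged from -0.26 to 0.22. At an unadjusted p under 0.05 the count was also 0, and DESeq2 called 0. Other settings did make calls: without the low-count filter 2 were higher and 4 lower in CAL27, without CAL27 NEDD8i replicate 1 8 were lower, without CAL27 NEDD8i replicate 2 3 were higher, and 1 was lower without A431 DMSO replicate 2 and with a replicate block.

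The number called rested on single libraries. In A431 it was 4 without DMSO replicate 2, 3 without NEDD8i replicate 1 and up to 13 with another library left out. In CAL27 it was 4 without DMSO replicate 1, 3 without NEDD8i replicate 2 and up to 12 with another left out, and the median moved between -0.77 without NEDD8i replicate 1 and -0.13 without NEDD8i replicate 2. DESeq2 called 1 in A431 and 2 in CAL27. The median was below 0 in all 18 settings of either line, the reported one included, and no mitochondrial gene was called higher in any of them. The 18 are not all separate checks of the median. The exon overlap limit was not applied to it and repeats the reported value. Leaving out a library of the other line hardly moved it, with medians of -0.383 to -0.377 in A431 and -0.419 to -0.400 in CAL27. In A431 both NEDD8i libraries lay below both DMSO libraries for 12 of the 13 genes (34.6% of all genes tested), and in CAL27 for 8 (39.5%).

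MT-CO1 encodes the catalytic subunit of cytochrome c oxidase (ENSG00000198804.2, chromosome M, 5904 to 7445). It stood at 6487 and 8031 CPM in A431 with DMSO, 4820 and 5702 with NEDD8i, 4313 and 3707 in CAL27 under DMSO and 3538 and 2579 under NEDD8i. NEDD8i libraries were below DMSO libraries in both lines with no overlap. The log2 change was -0.46 ± 0.12 in A431 (edgeR adjusted p = 0.00319) and -0.39 ± 0.12 in CAL27 (adjusted p = 0.00912). MT-CO2, which takes electrons from cytochrome c, changed by -0.33 ± 0.13 and -0.47 ± 0.13. MT-CO3, the remaining mitochondrial subunit of the complex, changed by -0.40 ± 0.12 in A431 and had a value of -0.23 ± 0.12 in CAL27 that did not pass (adjusted p = 0.132).

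Of the mitochondrial genes, MT-ND5 and MT-ND6, both of complex I, had the largest falls in CAL27. MT-ND6 (ENSG00000198695.2, chromosome M, 14149 to 14673) is the only protein gene read from the other strand of the mitochondrial DNA. Its level was 208 and 270.5 CPM in A431 under DMSO, 155 and 174 under NEDD8i, 117 and 104 in CAL27 under DMSO and 75.1 and 56.5 under NEDD8i, without overlap in either line. The changes were -0.54 ± 0.11 (adjusted p = 0.000837) and -0.74 ± 0.12 (adjusted p = 3.95e-05). Counting ignored strand, so its value may include antisense reads. MT-ND5, on the opposite strand, ends at 14148, the base before MT-ND6. Reads of an MT-ND5 transcript running past that end would count to MT-ND6. The falls of MT-ND5 and MT-ND6 may therefore not be separate, which was not tested. MT-ND5 (ENSG00000198786.2, chromosome M, 12337 to 14148), a proton-pumping subunit, stood at 657 and 881 CPM in A431 under DMSO and 460.4 and 584 under NEDD8i, and at 447 and 389 and 299.5 and 175 in CAL27. It changed by -0.56 ± 0.17 and -0.82 ± 0.17. The 2 CAL27 NEDD8i libraries differed from each other by more than the lower DMSO library differed from the higher NEDD8i library.

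MT-ND1 (ENSG00000198888.2, chromosome M, 3307 to 4262), which lies near the ubiquinone site of complex I, stood at 977 and 1026 CPM in A431 under DMSO and 644 and 772 under NEDD8i, a change of -0.50 ± 0.12. In CAL27 it stood at 370.0 and 315 and 328 and 220.4, where the groups overlapped, with a change of -0.32 ± 0.12 (adjusted p = 0.0391). MT-ND4, another proton-pumping subunit, changed by -0.38 ± 0.13 in A431 and -0.51 ± 0.13 in CAL27. MT-ND2 had -0.27 ± 0.12 in A431, which did not pass, and fell by 0.35 in CAL27, and MT-ND4L had -0.36 ± 0.15, not called, and -0.58 ± 0.16, called. MT-ND3 changed by -0.40 ± 0.14 in A431, and its CAL27 libraries ranged from 375 to 653 CPM with the groups overlapping (-0.25 ± 0.14, not called).

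MT-CYB, cytochrome b, the mitochondrial subunit of complex III, stood at 879 and 1084 CPM in A431 under DMSO and 692 and 817 under NEDD8i (-0.38 ± 0.15, adjusted p = 0.0555). In CAL27 it stood at 999 and 825 and 843 and 516, with overlapping groups and a change of -0.43 ± 0.15 (adjusted p = 0.0287). MT-ATP6, which forms the proton path of ATP synthase, changed by -0.36 ± 0.13 and -0.42 ± 0.13. MT-ATP8 stood between 8.62 and 17.2 CPM in the 8 libraries, and its values of -0.39 ± 0.17 and -0.17 ± 0.17 did not pass. Several mitochondrial genes have near-identical copies in the nuclear genome, and reads that match more than 1 place were not counted, so their levels are uncertain.

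**Figure D1:**
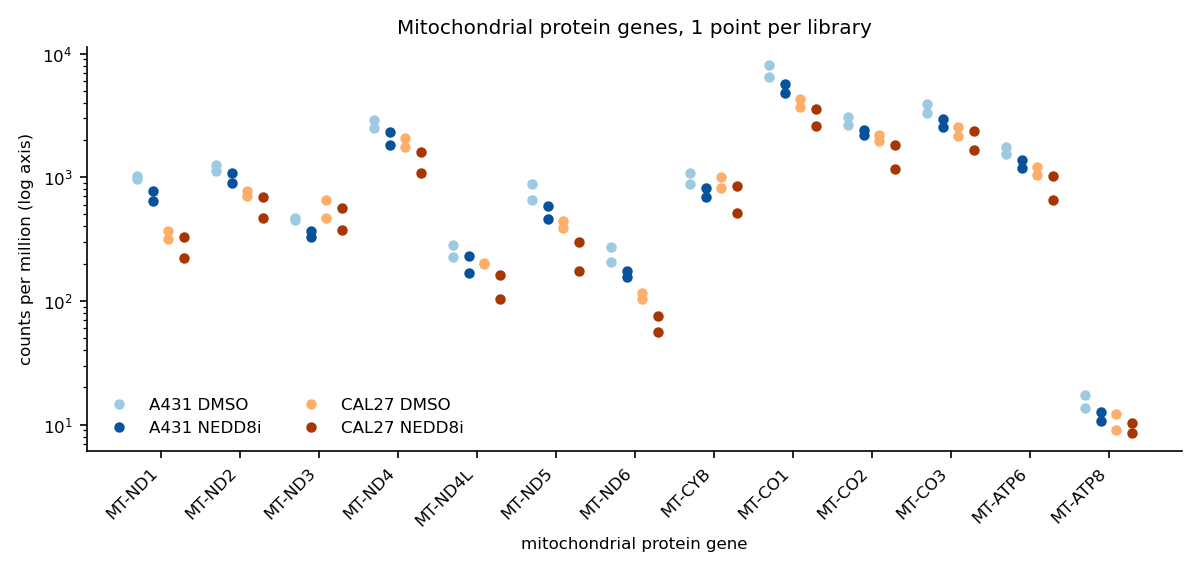
CPM of the 13 mitochondrial protein genes on a log axis, 1 point per library, coloured by line and treatment. In MT-CO1 the A431 libraries move from 6487 and 8031 to 4820 and 5702, and in CAL27 1 NEDD8i library lies below the other in every gene.

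Summed, the 13 genes took 2.12% and 2.51% of all counts in A431 with DMSO and 1.49% and 1.77% with NEDD8i. In CAL27 they took 1.67% and 1.46% under DMSO and 1.33% and 0.913% under NEDD8i. The NEDD8i libraries were lower in both lines without overlap. A share of a bulk library cannot tell fewer cells with a transcript from less of it per cell. The 84 nuclear genes together took 0.830% and 0.826% in A431 under DMSO and 0.690% and 0.685% under NEDD8i, and 0.882% and 0.898% against 0.798% and 0.812% in CAL27, again without overlap. The ratio of the mitochondrial to the nuclear sum was 2.55 and 3.04 in A431 under DMSO and 2.15 and 2.58 under NEDD8i. In CAL27 it was 1.90 and 1.63 under DMSO and 1.67 and 1.13 under NEDD8i. The ratio overlapped between the treatments in both lines. With 2 libraries against 2 no exact test over libraries can pass, so none was made. The shares are of raw counts, without the TMM library scaling used for CPM and log2 changes. TMM factors in CAL27 spanned 1.057 to 1.064 for DMSO and 0.9969 to 1.008 for NEDD8i libraries. For A431 they spanned 1.004 to 1.006 and 0.9323 to 0.9397. Scaling by them makes each fall smaller. Genes with many counts, such as ATP5F1B, weigh most in the nuclear sum. In CAL27 the median log2 change of the nuclear genes was -0.01, so the fall of their sum was not general.

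**Figure D2:**
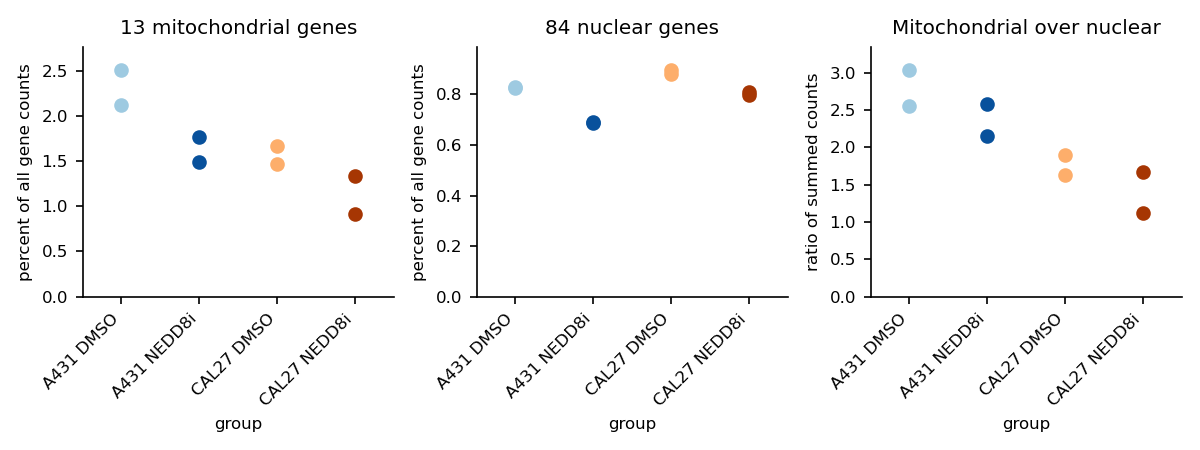
Percent of all gene counts taken by the 13 mitochondrial and by the 84 nuclear genes, and the ratio of the sums, with 1 point per library and axes from 0. The nuclear share falls from 0.830 and 0.826 to 0.690 and 0.685 percent in A431, and the ratio overlaps between treatments in both lines.

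The makeup of the 13 was compared by each gene's share of their counts. MT-CO1 gave 30.8% and 32.2% of the 13 genes' counts in A431 under DMSO and 30.2% and 30.3% under NEDD8i, and 27.5% and 26.8% against 26.5% and 28.5% in CAL27. MT-ND6 gave 0.988% and 1.08% against 0.975% and 0.924% in A431, and 0.743% and 0.750% against 0.562% and 0.624% in CAL27. MT-ND5 gave 3.12% and 3.53% against 2.89% and 3.11% in A431, and 2.85% and 2.81% against 2.24% and 1.93% in CAL27. MT-ND5 and MT-ND6, whose reads counting without strand may mix, had lower shares in both NEDD8i libraries than in both DMSO libraries in each line. In A431 the margins were smaller than the gap between the DMSO libraries, 3.117% against 3.111% for MT-ND5 and 0.988% against 0.975% for MT-ND6. Such separation was common: of the 13 genes 4 were lower and 4 higher without overlap in A431, and 5 and 3 in CAL27. MT-ND2 had a higher share in both NEDD8i libraries in each line. The shares of the other genes overlapped between the treatments in at least 1 line or differed in opposite directions.

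Of the nuclear subunits that were called, most fell in A431, and as many rose as fell in CAL27. Of the 84 genes 77 passed the filter on low counts. NDUFA7, COX6A2, COX7A1, COX7B2, COX8C, ATP5MF-PTCD1 and ATP5MGL did not. In A431, 2 of 77 were called higher (22.5% of all genes tested) and 35 lower (21.1%), with a median log2 change of -0.18. In CAL27, 16 were called higher (20.8%, against 23.2% of all genes tested) and 16 lower (20.8%, against 26.4%). Neither is above the share of all genes, which were also split nearly evenly. The CAL27 median was -0.01, which lay on either side of 0 across the settings. Both NEDD8i libraries lay below both DMSO libraries for 49 nuclear genes in A431 (34.6% of all genes tested) and above them for 7 (32.9%), and for 27 (39.5%) and 23 (35.0%) in CAL27. No called nuclear gene changed past 2-fold in A431, and in CAL27 only NDUFV3 did. Leaving out 1 library gave 25 to 35 called lower and 0 to 4 called higher in A431. In CAL27 it gave 11 to 18 called higher and 10 to 18 called lower, with the 10 found without DMSO replicate 1.

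The difference between the responses was called for 34 of the 77 nuclear genes. In 27 the value was higher in CAL27 (14.2% of all genes tested) and in 7 lower (19.8%), and 58 of 77 differences were above 0. The 27 became 17 without A431 NEDD8i replicate 2 or without CAL27 DMSO replicate 1, and the 7 became 4 without A431 NEDD8i replicate 1 or without CAL27 DMSO replicate 1. The 9 genes called lower in both lines were NDUFB5, NDUFV1, NDUFV3, SDHA, COX5B, ATP5F1A, ATP5F1C, ATP5MC2 and ATP5PB. NDUFB9 and ATP5MJ were called higher in both, and NDUFB11 and NDUFB3 were called lower in A431 and higher in CAL27. Across the 77 genes the changes in the 2 lines correlated with Pearson r = 0.44, against 0.37 over all 18738 genes. By rank (Spearman) the order was reversed, 0.34 against 0.43, so the genes were not clearly more alike between the lines than other genes. Genes share their libraries and are not independent, so this is a description.

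**Figure D3:**
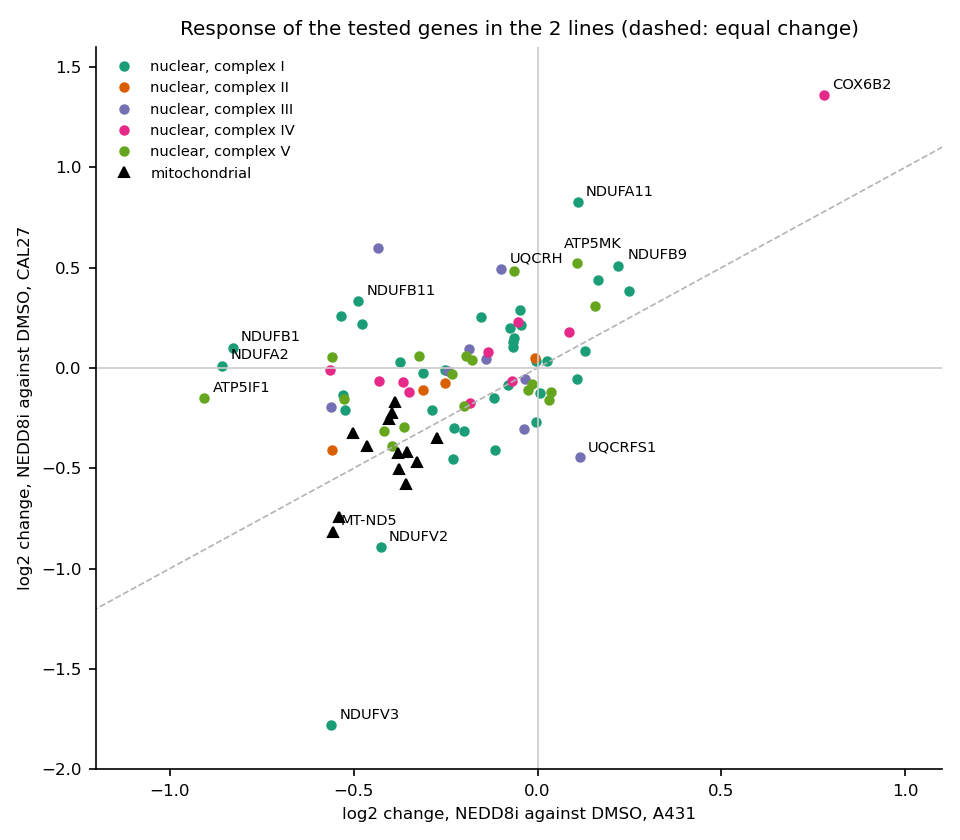
Log2 change under NEDD8i in A431 (horizontal) and CAL27 (vertical) for the 90 tested genes, nuclear genes coloured by complex and mitochondrial genes as triangles, with a dashed line of equal change. The mitochondrial genes lie below 0 on both axes, NDUFV3 lies lowest at -0.56 and -1.78, and COX6B2 and NDUFV2, which rest on few counts, did not pass.

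Complex I showed the largest single change. NDUFV3 (ENSG00000160194.18, chromosome 21, 42893268 to 42913304), a small accessory subunit at the NADH-oxidising tip, stood at 13.8 and 13.8 CPM in A431 under DMSO and 9.19 and 9.50 under NEDD8i. In CAL27 it stood at 32.8 and 31.6 under DMSO and 9.83 and 8.90 under NEDD8i. The lines were apart under DMSO and overlapped under NEDD8i. The changes were -0.56 ± 0.11 (adjusted p = 0.00057) and -1.78 ± 0.11 (adjusted p = 4.08e-10), and their difference of -1.22 ± 0.16 passed the test (adjusted p = 9.90e-06). It was called in each line in every setting tried.

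The flavin-bearing core subunit NDUFV1 (ENSG00000167792.13, chromosome 11, 67605653 to 67612554), which takes electrons from NADH, stood at 183 and 181 CPM in A431 under DMSO and 164 and 146 under NEDD8i. CAL27 levels were 180.4 and 192 and 132 and 139.8. It changed by -0.23 ± 0.06 and -0.46 ± 0.06. Among the core subunits that carry the iron-sulphur clusters or form the quinone site, NDUFS1 fell in CAL27 by 0.27 and had -0.00 ± 0.05 in A431, not called. NDUFS3, NDUFS7 and NDUFS8 were called in neither line. NDUFV2 rested on 0.0501 to 0.439 CPM per library, with 42.6% of its exonic bases inside other genes, and says little.

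The accessory subunits of complex I, which surround the core and hold it together, were mostly not called. Of 28 tested, 1 was called higher and 11 lower in A431, against 22.5% and 21.1% of all genes tested, and 9 higher and 3 lower in CAL27, against 23.2% and 26.4%. NDUFA2 (ENSG00000131495.9, chromosome 5, 140645285 to 140647645) stood at 52.1 and 43.9 CPM in A431 under DMSO and 26.2 and 26.8 under NEDD8i, a change of -0.86 ± 0.09 (adjusted p = 4.30e-07). Its CAL27 levels were 49.6 and 45.3 and 46.53 and 49.03, with overlapping groups and a value of 0.01 ± 0.09 that did not pass. The difference was 0.87 ± 0.12 (adjusted p = 2.83e-05). NDUFB1, a small membrane subunit, had -0.83 ± 0.14 in A431, called, and 0.10 ± 0.13 in CAL27, not called, and the difference of 0.93 ± 0.19 passed.

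NDUFB11 (ENSG00000147123.12, chromosome X, 47142071 to 47145466), a membrane-arm subunit encoded on the X chromosome, stood at 121 and 122 CPM in A431 under DMSO and 86.1 and 86.5 under NEDD8i. In CAL27 it stood at 81.6 and 83.7 under DMSO and 99.3 and 109 under NEDD8i. Both pairs of groups were apart, in opposite directions. The changes were -0.49 ± 0.06 (adjusted p = 1.95e-06) and 0.33 ± 0.06 (adjusted p = 9.97e-05), and each held in every setting tried. NDUFB3 had -0.48 ± 0.09 and 0.22 ± 0.09, and its rise in CAL27 (adjusted p = 0.0486) was lost in 5 settings, among them leaving out CAL27 DMSO replicate 1 or replicate 2. NDUFA11, a membrane-arm subunit, stood at 6.21 and 7.75 CPM in CAL27 under DMSO and 11.3 and 13.5 under NEDD8i, and rose by 0.83 ± 0.20. Its A431 value of 0.11 ± 0.22 did not pass, and neither did the difference (adjusted p = 0.0719).

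NDUFB9 was the accessory subunit called higher in both lines. It stood at 161 and 152 CPM in A431 under DMSO and 179 and 186 under NEDD8i, and at 124 and 127 and 166 and 191 in CAL27. It rose by 0.22 ± 0.06 and 0.51 ± 0.06, and the A431 call was lost without DMSO replicate 2. NDUFA4 had -0.25 ± 0.07 in A431, called, and -0.01 ± 0.07 in CAL27, not called.

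In complex II, 3 of 4 genes were called lower in A431 (21.1% of all genes tested) and 1 in CAL27 (26.4%), the latter near the share of all genes. SDHA, the flavoprotein that binds succinate (ENSG00000073578.18, chromosome 5, 218303 to 257082), stood at 9.28 and 10.5 CPM in A431 under DMSO and 7.33 and 6.10 under NEDD8i, and at 10.6 and 11.7 and 7.66 and 9.12 in CAL27. It changed by -0.56 ± 0.16 and -0.41 ± 0.16 (adjusted p = 0.00867 and 0.0375), with 69.6% of its exonic bases inside exons of other genes, where reads were not counted. The membrane anchors SDHC and SDHD fell in A431 by 0.31 and 0.25 and had -0.11 ± 0.06 and -0.07 ± 0.07 in CAL27, not called. SDHB, the iron-sulphur subunit, had -0.01 ± 0.05 and 0.05 ± 0.05, not called in either line.

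In complex III, the Rieske protein and a core subunit fell and the hinge protein rose in CAL27. UQCRFS1 (ENSG00000169021.6, chromosome 19, 29205320 to 29213151), the Rieske iron-sulphur protein, stood at 125 and 126 CPM in CAL27 under DMSO and 86.8 and 97.2 under NEDD8i. In A431 it stood at 85.8 and 74.8 and 89.2 and 84.8, with overlapping groups. It fell by 0.45 ± 0.07 in CAL27 and had 0.11 ± 0.07 in A431, and the difference of -0.56 ± 0.10 passed (adjusted p = 0.000258). UQCRC2, a core subunit, fell by 0.31 in CAL27, with -0.04 ± 0.05 in A431. UQCRC1, the other core subunit, fell by 0.14 in A431 and had 0.05 ± 0.05 in CAL27.

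UQCRH (ENSG00000173660.12, chromosome 1, 46303698 to 46316776), the acidic hinge protein beside cytochrome c1, stood at 130.0 and 133 CPM in CAL27 under DMSO and 185 and 185 under NEDD8i, and at 215 and 218 and 205 and 199 in A431. It rose by 0.49 ± 0.05 in CAL27 (adjusted p = 6.71e-08), had -0.10 ± 0.05 in A431, not called, and differed between the lines by 0.59 ± 0.06. UQCRHL, a near-identical copy of UQCRH, had 2.30 to 5.91 CPM, and the 2 genes' reads cannot be fully told apart. Its value of 0.60 ± 0.23 in CAL27 was called but lost that call in 6 settings. UQCR10 and UQCRB, small subunits, fell in A431 by 0.56 and 0.24 and had -0.19 ± 0.12 and -0.01 ± 0.06 in CAL27, not called.

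**Figure D4:**
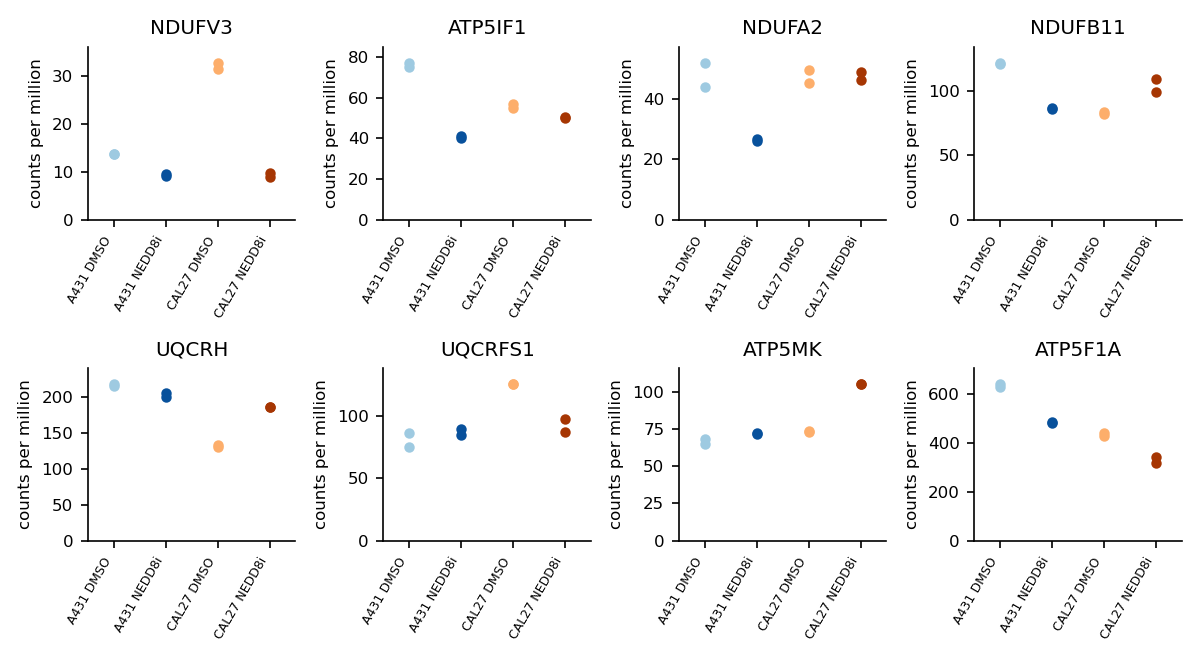
CPM of 8 nuclear genes, 1 point per library, with axes from 0. NDUFV3 falls from 32.8 and 31.6 to 9.83 and 8.90 in CAL27, ATP5IF1 falls from 77.3 and 75.4 to 40.5 and 41.0 in A431, and NDUFB11 falls in A431 and rises in CAL27.

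Of the nuclear complex IV genes 5 of 10 tested were called lower in A431 (21.1% of all genes tested) and none higher, and 1 lower (26.4%) and 2 higher (23.2%) in CAL27, the latter near the share of all genes. COX7B (ENSG00000131174.7, chromosome X, 77899440 to 77907376), a small subunit encoded on the X chromosome, stood at 83.9 and 87.3 CPM in A431 under DMSO and 55.3 and 60.4 under NEDD8i. CAL27 libraries had 75.5 and 80.9 and 81.1 and 74.0, with overlapping groups. It fell by 0.56 ± 0.07 in A431 and had -0.01 ± 0.07 in CAL27, and the difference of 0.55 ± 0.10 passed (adjusted p = 0.000225). COX5B, which binds zinc, fell in both lines, by 0.19 and 0.18. COX6C and COX6A1 were the genes called higher in CAL27, at 0.23 ± 0.08 and 0.18 ± 0.07, with values of -0.05 ± 0.08 and 0.09 ± 0.07 in A431.

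Several complex IV and V subunits exist as paralogs for different tissues, and the common forms carried the counts. COX7A2, the widespread form, fell from 143 and 139 to 102 and 108 CPM in A431, while its heart and muscle paralog COX7A1 had at most 0.204 CPM in a library. COX6A2, the muscle form, and COX8C had 0 counts in all 8 libraries, against 42.5 to 56.7 CPM for COX6A1 and 55.4 to 155 for COX8A. In a library 3 counts are 0.0480 to 0.0612 CPM. COX6B1 fell in A431 by 0.37 and had -0.07 ± 0.05 in CAL27, and its testis form COX6B2 had 0.111 to 1.16 CPM. COX8A fell in A431 by 0.35. The 3 genes of the ATP synthase c-ring, ATP5MC1, ATP5MC2 and ATP5MC3, encode the same mature protein with different import signals. They fell in A431 by 0.53, 0.42 and 0.23, and in CAL27 only ATP5MC2 fell, by 0.32, with -0.15 ± 0.06 for ATP5MC1 and -0.03 ± 0.05 for ATP5MC3.

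In complex V most genes of the F1 head, which makes ATP, fell. Of its 5 genes 3 were called lower in A431 (21.1% of all genes tested) and 4 in CAL27 (26.4%), and none higher. ATP5F1A (ENSG00000152234.16, chromosome 18, 46080248 to 46104233), the alpha subunit, stood at 643 and 632 CPM in A431 under DMSO and 487 and 481 under NEDD8i, and at 428 and 439.5 and 319.9 and 343 in CAL27, without overlap in either line. It changed by -0.40 ± 0.04 (adjusted p = 7.02e-07) and -0.39 ± 0.04 (adjusted p = 6.64e-07), with a difference of 0.01 ± 0.06 that did not pass. ATP5F1B, the catalytic beta subunit, had 0.04 ± 0.04 in A431, not called, and fell by 0.12 in CAL27. ATP5F1D, of the central stalk, had 0.03 ± 0.06, not called, and fell by 0.16, while ATP5F1E, beside it, fell by 0.32 in A431 and had 0.06 ± 0.06 in CAL27, not called. ATP5F1C, the central shaft, fell by 0.20 and 0.19. ATP5PB, of the peripheral stalk that holds the head still, fell in both lines by 0.36 and 0.29.

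ATP5IF1 (ENSG00000130770.18, chromosome 1, 28236109 to 28246906), the inhibitor that stops ATP synthase from running backwards, had the largest fall of the nuclear genes in A431. It stood at 77.3 and 75.4 CPM under DMSO and 40.5 and 41.0 under NEDD8i in A431, and at 55.0 and 56.7 and 50.6 and 50.2 in CAL27. The changes were -0.91 ± 0.06 (adjusted p = 3.77e-09) and -0.15 ± 0.06, the latter not called (adjusted p = 0.0635), and the difference of 0.76 ± 0.09 passed (adjusted p = 4.25e-06). In CAL27 3 small membrane subunits of ATP synthase rose. ATP5MK (ENSG00000173915.16, chromosome 10, 103389041 to 103396492) stood at 72.9 and 73.7 CPM in CAL27 under DMSO and 106 and 106 under NEDD8i, and rose by 0.53 ± 0.06, with 0.11 ± 0.06 in A431, not called, and a difference of 0.42 ± 0.08 (adjusted p = 0.000556). ATP5MG rose by 0.48 and ATP5MJ by 0.31. ATP5MJ was also called in A431, at 0.16 ± 0.06, and lost that call in 7 settings. ATP5ME fell in A431 by 0.56 at 3.50 to 5.78 CPM in that line, with 39.6% of its exonic bases inside other genes.

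The nuclear genes were also counted by role. Of the 19 core, catalytic or head subunits of complexes I, II, III and V, none was called higher and 10 lower in CAL27, and none higher and 8 lower in A431. Of the other 58 tested, 16 were called higher and 6 lower in CAL27, and 2 higher and 27 lower in A431. The difference between the lines was called higher in CAL27 for 2 and lower for 6 of the 19, and higher for 25 and lower for 1 of the 58. That difference was called higher for 14.2% and lower for 19.8% of all genes tested, so the 2 of 19 lie near that share. Over all genes tested, 23.2% were called higher and 26.4% lower in CAL27 and 22.5% and 21.1% in A431, so the 16 of 58 higher in CAL27 lie close to that share. The roles were drawn up from general knowledge after the values had been seen, so the counts describe the genes and test nothing. The median exonic length was 1922 bases for the nuclear genes called higher in CAL27 and 2601 for those called lower, and the part of length in the counts was not tested.

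**Figure D5:**
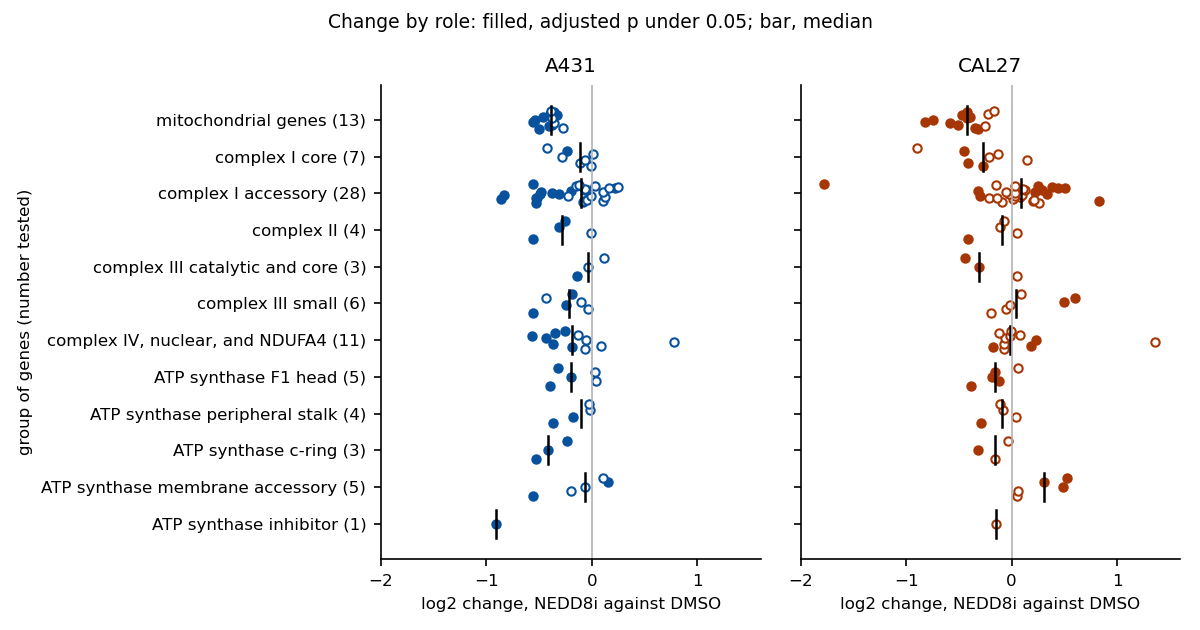
Log2 change under NEDD8i in A431 (left) and CAL27 (right) of the tested genes by role, 1 point per gene, filled where called, with a bar at the median of each group. Complex I core genes have medians of -0.12 and -0.27, and complex I accessory genes -0.10 and 0.09.

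The lines also differed before treatment. Under DMSO 10 of the 13 mitochondrial genes were called lower in CAL27 than in A431 (29.0% of all genes tested, with 58.9% called in either direction) and none higher, with a median log2 difference of -0.56. MT-ND1 had the largest, -1.55 ± 0.13 (adjusted p = 8.54e-09), followed by MT-ND6 at -1.12 ± 0.12. MT-ND3 ran the other way at 0.29 ± 0.14, and it, MT-ND4L and MT-CYB were not called. Of 77 nuclear genes 26 were called higher (33.8%, against 29.9% of all genes tested) and 25 lower (32.5%, against 29.0%) in CAL27. Both are near the shares of all genes. The largest were COX6B2 at -2.48 ± 0.75, on few counts, ATP5F1C at -1.30 ± 0.05 and NDUFV3 at 1.22 ± 0.11. ATP5F1C stood at 296 and 293 CPM in A431 and 123 and 116 in CAL27. These differences share their DMSO libraries with the treatment comparisons.

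Other genes of the pathway were counted in lists, to be read against the shares over all genes tested: 22.5% called higher and 21.1% lower in A431, and 23.2% and 26.4% in CAL27. Of the 8 regulators of mitochondrial gene expression, 2 were called higher and 2 lower in A431, near those shares, and 4 higher and 3 lower in CAL27. PPARGC1A, a coactivator of mitochondrial biogenesis, stood at 13.7 and 12.1 CPM in CAL27 under DMSO and 0.743 and 1.39 under NEDD8i, a fall of 3.58 ± 0.22 (adjusted p = 4.30e-10), and had -0.42 ± 0.18 in A431, not called. PPARGC1B, its relative, fell by 3.15 in CAL27 and by 0.41 in A431, and both differences between the lines passed (adjusted p = 1.72e-07 and 2.05e-08). GABPB1, a subunit of GABP, rose by 0.84 in A431 and 0.81 in CAL27, while GABPA, its DNA-binding partner, fell by 0.46 in A431 and had 0.17 ± 0.08 in CAL27. NRF1 rose by 0.42 in CAL27 and had -0.13 ± 0.11 in A431. PPRC1, a further coactivator of this family, rose by 0.47 in A431 and 0.26 in CAL27.

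Of 16 genes for transcription and replication of mitochondrial DNA, 6 were called higher and 2 lower in each line. POLRMT, the mitochondrial RNA polymerase, rose by 0.46 in A431 and had -0.03 ± 0.08 in CAL27, and MTERF3 rose by 0.48 in A431 and had 0.11 ± 0.12 in CAL27. TFAM, which packages the DNA and starts its transcription, rose by 0.34 in CAL27 and had 0.03 ± 0.06 in A431. The replication helicase TWNK rose by 0.36 in A431 and 0.81 in CAL27, and the DNA polymerase POLG by 0.40 and 0.74. POLG2, the accessory subunit of that polymerase, fell by 1.23 in A431 and had -0.23 ± 0.21 in CAL27. MGME1, a nuclease for mitochondrial DNA, fell by 0.29 in A431 and rose by 0.24 in CAL27. TOP1MT, a topoisomerase, and RNASEH1 fell in CAL27 by 0.54 and 0.45 and had -0.11 ± 0.15 and 0.21 ± 0.09 in A431.

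Of 18 genes for processing and decay of mitochondrial RNA, 7 were called higher and 1 lower in A431, and 6 each way in CAL27. PDE12, which trims poly(A) tails of mitochondrial mRNAs, rose by 0.81 in A431 and 0.95 in CAL27, and FASTKD5 by 0.51 and 0.71. PNPT1, a ribonuclease, rose by 0.52 in A431 and had 0.04 ± 0.08 in CAL27. FASTKD1 fell by 0.49 in A431 and 0.37 in CAL27. FASTK and ELAC2, the latter a nuclease that trims tRNAs, fell in CAL27 by 0.62 and 0.37 and had -0.14 ± 0.07 and 0.04 ± 0.06 in A431. LRPPRC, which stabilises the mRNAs, fell by 0.33 in CAL27 and had -0.03 ± 0.05 in A431.

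Of 78 mitochondrial ribosome genes 16 were called higher and 12 lower in A431, with the higher share near that of all genes, and 29 and 12 in CAL27, with medians of 0.03 and 0.09. The largest called rises in A431 were MRPL4 at 0.67 ± 0.06 and MRPS30 at 0.62 ± 0.07, which had 0.22 ± 0.06, called, and 0.00 ± 0.07, not called, in CAL27. The largest falls there were MRPL23 and MRPS18B, by 0.66 and 0.64, and both fell in CAL27, by 0.21 and 0.27. In CAL27 MRPL49 rose by 0.55, against a fall of 0.30 in A431, and MRPS15 by 0.53, against a rise of 0.47. MRPS17 and MRPL57 fell in CAL27 by 0.74 and 0.67 and had 0.08 ± 0.12 and -0.14 ± 0.09 in A431, not called. Of 24 tested genes of protein import, through which nuclear subunits enter, 10 were called higher and 2 lower in A431 and 13 and 2 in CAL27. TOMM40, the outer membrane pore, rose by 0.77 in A431 and 0.54 in CAL27, and TIMM22, of the carrier translocase, rose by 0.73 in CAL27 and had 0.21 ± 0.08 in A431. TIMM23B rose by 1.28 and 0.98, and it has a near-identical copy, TIMM23, so its level is uncertain. TIMM8B, a small chaperone of the intermembrane space, fell by 0.39 in A431 and 0.66 in CAL27. TOMM40L fell by 0.31 in A431 and had 0.26 ± 0.12 in CAL27, and TIMM10B fell by 0.27 in CAL27 and had 0.17 ± 0.11 in A431.

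Assembly factors were called in both directions. Of 19 for complex I, 6 were called each way in A431, and 3 higher and 6 lower in CAL27. NUBPL, which supplies iron-sulphur clusters to complex I, fell by 1.04 in A431 and 0.99 in CAL27, and DMAC1 by 0.69 and 1.15. NDUFAF7 rose by 0.86 and 0.45 and ECSIT by 0.39 and 0.41, while NDUFAF4 rose by 0.72 in A431 and had -0.19 ± 0.14 in CAL27, not called. For complex II, SDHAF2 rose by 0.50 and 0.79, SDHAF4 fell by 1.24 and 1.98, and SDHAF3 fell by 0.49 and 0.55. Of 6 for complex III, 4 were called lower in A431 and 3 in CAL27, none higher. LYRM7, which helps insert the Rieske protein, fell by 0.68 and 0.55, UQCC2 by 0.53 and 0.42, and TTC19 by 0.30 and 0.82.

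Of 25 assembly factors for complex IV, 5 were called higher and 6 lower in A431 and 9 and 7 in CAL27, near the shares of all genes except for the rises in CAL27. COX19 stood at 17.8 and 21.2 CPM in CAL27 under DMSO and 64.3 and 71.4 under NEDD8i, without overlap. It rose by 1.80 ± 0.11, and had 0.06 ± 0.11 in A431, not called. COX18, which inserts part of the MT-CO2 protein into the membrane, fell by 1.52 in CAL27 and 0.37 in A431. COA6, which helps deliver copper, rose by 1.56 in A431 and 1.35 in CAL27, and COA8 by 0.69 and 0.82. HIGD2A fell by 0.85 in A431 and 0.43 in CAL27, and COA5 by 0.75 and 1.11. For ATP synthase, TMEM70, which helps assemble the c-ring, rose by 0.96 and 0.87, and ATPAF1, an F1 assembly factor, rose by 0.19 in CAL27 and had -0.01 ± 0.06 in A431.

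Of 18 genes of pyruvate dehydrogenase and the TCA cycle, which feed the chain, 5 were called higher and 7 lower in A431, and 4 and 10 in CAL27, with the 4 near the share of all genes. SUCLG2, a succinyl-CoA ligase subunit, fell by 0.75 in A431 and 1.93 in CAL27, and IDH2, the mitochondrial NADP-dependent isocitrate dehydrogenase, by 0.33 and 1.25. Of the NAD-dependent isocitrate dehydrogenase, IDH3A rose by 0.89 and 0.19, with 60.9% of its exonic bases inside other genes, IDH3G fell by 0.64 and 0.52, and IDH3B had 0.06 ± 0.06 in A431, not called, and rose by 0.35 in CAL27. DLD, a pyruvate dehydrogenase component, rose by 0.45 in A431 and had -0.00 ± 0.05 in CAL27, and PDHX, another, rose by 0.23 and 0.50. Of 12 tested genes of ubiquinone synthesis, 1 was called higher and 5 lower in A431 and 1 and 6 in CAL27. COQ10B rose by 0.80 and 0.90. COQ2 fell by 0.41 and 1.34 and COQ5 by 0.70 and 0.41, while COQ9 fell by 0.98 in CAL27 and had -0.13 ± 0.07 in A431, and COQ10A fell by 0.91 in A431 and had 0.43 ± 0.28 in CAL27.

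Of 9 tested mitochondrial genes linked to hypoxia, 7 were called higher in A431 and 6 in CAL27, none lower. BNIP3, a mitophagy receptor, stood at 6.39 and 6.05 CPM in A431 under DMSO and 145 and 140.4 under NEDD8i, and at 70.3 and 73.4 and 354 and 361 in CAL27, without overlap in either line. It rose by 4.52 ± 0.06 (adjusted p = 4.13e-18) and 2.32 ± 0.05 (adjusted p = 6.25e-16), the largest called rise of the list in each line. BNIP3L, its relative, rose by 1.499 and 1.90. PDK1, which turns pyruvate dehydrogenase off, stood at 7.94 and 8.49 CPM in A431 under DMSO and 37.9 and 39.4 under NEDD8i and rose by 2.24, and by 0.95 in CAL27. NDUFA4L2 stayed at 0.630 to 1.38 CPM, and COX4I2 had 0 counts in all libraries. Of the subunits and carriers outside the naming rule, COX4I1 rose by 0.30 and NDUFAB1 by 0.22 in CAL27, CYC1 fell there by 0.25, and none of these was called in A431. COX7A2L, which takes part in joining complexes, rose by 0.56 in A431 and 0.19 in CAL27, and CYCS, cytochrome c, rose by 0.22 in A431 and had 0.09 ± 0.04 in CAL27, not called.

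Among the list genes named by the rule, leaving out 1 library ended the A431 call of COQ10A, COQ2, COX18, FASTKD1, MGME1, MTERF3, PPARGC1B, SDHAF3, TIMM8B, TOMM40L and TTC19 and the CAL27 call of ATPAF1, COX7A2L, FASTKD1, HIGD2A, IDH3A, MGME1, MRPL23, MRPL4, NDUFAF7, NRF1, SDHAF3, TIMM10B, TOP1MT and UQCC2.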

How the data were processed

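QuantSeq FWD libraries were prepared, per the labels' protocols, and STAR aligned the reads to GRCh38, per the submitters' processing notes. The deposited values are whole-number counts per gene. Per the file headers, the authors counted a filtered alignment with featureCounts 2.0.8 over basic GENCODE 39 exons, ignoring strand, each mate of a pair counting once. Reads over several genes or places were dropped.

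Symbols came from a table of gene names (61369 of 61533 matched) and gene types from GENCODE 29. CPM and calls came from edgeR 4.0.16 in R 4.3.3: filterByExpr, TMM, 1 mean per group, quasi-likelihood tests, Benjamini-Hochberg adjustment over 18738 genes, calls under 0.05, with DESeq2 1.42.0 as an alternative. The ± after a log2 value is the value over the root of its F statistic. Groups followed the labels. Counts total 49037868 to 62509817 per library, and counting floors cover counting error only. Chi-square per degree of freedom between replicates was 6.54 to 14.1, so none was a copy.

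Members and lists were chosen with earlier results of these data known. The naming rule took all 13 mitochondrial genes, per complex and line the 2 largest called rises and falls, the 5 largest called differences between the lines and under DMSO, genes called in opposite directions, the tissue paralogs, and in each other list the 2 largest called rises and falls per line. Other genes named were chosen after their values were seen. Alternatives were other scalings, filters, tools and fits, each library left out, halved counts and members with little exon overlap. A member that entered the totals is not reported by name here.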

Additional observations from a re-analysis of the deposited data

Results flagged for a closer look

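The responses of 20 named nuclear genes differed between the lines by the edgeR test of the difference itself (CAL27 log2 change minus A431 log2 change). Those with a higher value in CAL27 were UQCRHL (1.03), NDUFB1 (0.93), NDUFA2 (0.87), NDUFB11 (0.82), ATP5IF1 (0.76), NDUFB3 (0.70), UQCRH (0.59), COX7B (0.55), ATP5MG (0.55), ATP5MK (0.42), ATP5MC1 (0.37), COX7A2 (0.37), COX6B1 (0.29), NDUFB9 (0.29), COX8A (0.23) and ATP5MC3 (0.20). Those with a lower value in CAL27 were NDUFV3 (-1.22), UQCRFS1 (-0.56), UQCRC2 (-0.27) and NDUFV1 (-0.22). Genes were named partly for large called changes, large called differences or opposite calls, so the number listed does not measure how common differences were. Over all 77 tested nuclear genes, the difference was called higher in CAL27 for 27 and lower for 7. The shares of all genes tested were 14.2% and 19.8%. The genes of the other pathway lists were also named partly for large called changes.

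Among the named genes of the other pathway lists, by the same test, the higher values in CAL27 were those of COX19 (1.74), COQ10A (1.34), POLG2 (0.99), MRPL49 (0.85), GABPA (0.63), TOMM40L (0.57), NRF1 (0.56), MGME1 (0.54), TIMM22 (0.52), MRPL23 (0.45), TWNK (0.44), HIGD2A (0.42), BNIP3L (0.40), MRPS18B (0.37), POLG (0.34), IDH3B (0.29), PDHX (0.27) and COX4I1 (0.25). The lower values in CAL27 were those of PPARGC1A (-3.16), PPARGC1B (-2.74), BNIP3 (-2.20), PDK1 (-1.29), SUCLG2 (-1.18), COX18 (-1.15), COQ2 (-0.93), IDH2 (-0.92), NDUFAF4 (-0.91), COQ9 (-0.86), MRPS17 (-0.82), IDH3A (-0.70), RNASEH1 (-0.67), MRPS30 (-0.62), MRPL57 (-0.53), TTC19 (-0.52), POLRMT (-0.49), FASTK (-0.48), PNPT1 (-0.48), DMAC1 (-0.46), MRPL4 (-0.45), DLD (-0.45), TIMM10B (-0.45), ELAC2 (-0.41), COX7A2L (-0.37), CYC1 (-0.31) and TOMM40 (-0.23).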

How the results depend on the processing

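Of the alternative values for named genes, 5921 kept their direction and call, 148 gained a call, 275 lost one and none reversed. Settings are named where a count moved past 1.5 times. Mitochondrial genes called lower were 9 in A431 and 10 in CAL27, and DESeq2 called 1 and 2. Leaving out 1 library gave 3 to 13 and 3 to 12. Without the low-count filter the difference between the lines was called higher for 2 and lower for 4 mitochondrial genes, and leaving out 1 library gave 0 to 3 and 0 to 8. Nuclear genes called higher in A431 were 1 without the filter and 0 to 4 with 1 library left out, against 2. In CAL27, 10 nuclear genes were called higher among those under 10% exon overlap, and 10 to 18 were called lower with 1 library left out. For the difference, leaving out 1 library gave 17 to 28 nuclear genes higher and 4 to 8 lower. For CAL27 against A431 under DMSO, 1 mitochondrial gene was called higher without the filter, 1 with halved counts and 0 to 1 with 1 library left out, and 17 nuclear genes were higher under 10% overlap. The causes were not tested, except that the overlap limit tests fewer genes (50 of 77). Where leaving out 1 library left 1 in its group, that library was assumed to vary like the others.

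With the replicate number as a block within each line, the difference was called lower for 1 mitochondrial gene, against 0, and the other counts stayed within 1.5 times. The labels do not say that a number marks a shared batch, and differences between replicates 1 and 2 under DMSO and NEDD8i correlated across genes with r = 0.00559 in A431 and -0.0303 in CAL27. Each mate was counted, so counting errors are too small, and for NDUFV2 and COX6B2, near the counting floor, no difference under NEDD8i was detectable at this depth.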

Other observations

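The mitochondrial ribosomal RNAs did not follow the mitochondrial mRNAs in CAL27. MT-RNR2, the large ribosomal RNA, stood at 4784 and 5348 CPM in A431 under DMSO and 4120 and 4360 under NEDD8i, and at 699 and 704 and 799 and 752 in CAL27. It fell by 0.26 ± 0.05 in A431 (edgeR adjusted p = 0.000178) and rose by 0.14 ± 0.05 in CAL27 (adjusted p = 0.0147), and the difference of 0.40 ± 0.07 passed (adjusted p = 0.000106). MT-RNR1, the small ribosomal RNA, had -0.02 ± 0.08 in A431, not called, and rose by 0.24 in CAL27 (adjusted p = 0.0187). Under DMSO MT-RNR2 was 7.22-fold and MT-RNR1 4.03-fold lower in CAL27 than in A431, a larger gap than for any of the 13 mitochondrial mRNAs, whose largest difference was that of MT-ND1 at -1.55. The libraries were primed on poly(A), and reads that also match nuclear copies were not counted, so these levels are not those of the whole ribosomal RNA.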
